A study of Mus musculus with 28 samples.

Results

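Onecut2, Sntg2, Sorcs3, Adcy2, Rbfox3, Rimbp2, Tmprss5, Slc38a4, Itpr2 and Chst5 are 10 genes of mouse spermatogonia, out of 43280 features in the count tables, that were chosen by their measured levels: lower in wild type (WT) by 48 to 120 h after retinoic acid, and higher in Stra8 knockout (KO). All 10 were found in both tables and all 10 passed the expression filter that left 17519 genes. The late values that chose them are therefore given as a description with no test, and no numeric threshold was part of the choice. Tests are given for comparisons among the 12 h, 18 h and KO 0 h libraries only. The genes were chosen with earlier results of these data known, so these tests are not independent of that choice.

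Germ cells were sorted from testes by a PIWIL2-eGFP reporter and their polyA RNA was sequenced in 14 groups of 2 libraries, 28 in all. Mice of both genotypes had a strain background derived from C57BL/6 x 129s4/SvJae, and their age is not known here. Every group, the 0 h controls included, had received WIN 18,446, an inhibitor of retinoic acid synthesis, for 7 days. Collection followed at once (0 h), or at 12, 18, 48, 72, 96 or 120 h after an injection of retinoic acid, for WT and KO alike. The labels do not say that both libraries of a group came from separate animals, so the spread behind each p-value may be technical. Levels are counts scaled to a library total of 1000000 reads (CPM). In each pair of values below, the library of the first count table comes before that of the second.

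Retinoic acid drives undifferentiated spermatogonia into differentiation and later into meiosis. STRA8 is a retinoic acid-induced nuclear factor of germ cells that is needed for a normal entry into meiosis. WIN 18,446 holds spermatogonia in the undifferentiated state, so that an injection of retinoic acid starts them together. Several of the 10 genes are best known from neurons. Onecut2 encodes a CUT homeodomain transcription factor of liver, pancreas and neuronal development, Rbfox3 the neuronal RNA-binding splicing factor known as NeuN, Sntg2 a syntrophin adaptor of the dystrophin complex, Rimbp2 a scaffold of the presynaptic active zone and Sorcs3 a VPS10-domain sorting receptor. Adcy2 encodes a membrane adenylyl cyclase that makes cAMP, and Itpr2 an IP3-gated calcium channel of the endoplasmic reticulum. Slc38a4 encodes a sodium-coupled amino acid transporter of liver and placenta, Tmprss5 a type II transmembrane serine protease, and Chst5 a sulfotransferase of N-acetylglucosamine residues.

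Promoter sequence was read from RefSeq (GRCm38.p6) for 9 of the 10 genes, all but Onecut2, as the 250 bases before the listed start. The promoters of Sntg2, Chst5 and Tmprss5, which fell by 12 h in KO (see their levels), are printed with those of Sorcs3 and Slc38a4, which did not pass that test. Capitals mark matches, on either strand, to the motifs searched. The Sntg2 promoter is at chr12:30373377-30373626, minus strand, that of Chst5 at chr8:111910200-111910449, minus strand, that of Tmprss5 at chr9:49102478-49102727, plus strand, that of Sorcs3 at chr19:48205775-48206024, plus strand and that of Slc38a4 at chr15:97055957-97056206, minus strand.
Sntg2: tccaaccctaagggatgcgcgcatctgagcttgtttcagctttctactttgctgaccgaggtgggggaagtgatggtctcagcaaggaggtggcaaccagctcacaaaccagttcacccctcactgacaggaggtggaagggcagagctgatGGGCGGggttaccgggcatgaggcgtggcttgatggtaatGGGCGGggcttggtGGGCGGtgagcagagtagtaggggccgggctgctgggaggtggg
Chst5: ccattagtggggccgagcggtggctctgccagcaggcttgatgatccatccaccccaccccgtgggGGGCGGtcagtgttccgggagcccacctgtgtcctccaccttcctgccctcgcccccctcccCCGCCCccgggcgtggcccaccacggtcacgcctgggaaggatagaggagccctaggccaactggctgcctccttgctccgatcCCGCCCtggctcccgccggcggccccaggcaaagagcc
Tmprss5: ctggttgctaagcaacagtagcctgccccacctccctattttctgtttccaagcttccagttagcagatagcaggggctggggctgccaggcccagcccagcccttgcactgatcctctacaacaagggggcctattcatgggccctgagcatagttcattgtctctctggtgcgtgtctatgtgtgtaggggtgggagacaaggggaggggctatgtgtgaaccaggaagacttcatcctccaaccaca
Sorcs3: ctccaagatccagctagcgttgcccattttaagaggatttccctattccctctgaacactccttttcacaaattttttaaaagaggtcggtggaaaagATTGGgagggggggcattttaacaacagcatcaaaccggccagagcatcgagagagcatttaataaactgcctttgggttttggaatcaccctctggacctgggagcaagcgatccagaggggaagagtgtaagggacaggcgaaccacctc
Slc38a4: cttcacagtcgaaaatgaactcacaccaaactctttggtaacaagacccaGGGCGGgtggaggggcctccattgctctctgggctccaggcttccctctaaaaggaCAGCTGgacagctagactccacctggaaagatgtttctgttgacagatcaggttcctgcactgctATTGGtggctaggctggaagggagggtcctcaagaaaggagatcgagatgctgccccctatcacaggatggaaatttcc

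The motif searches found no letters shared by all 9 promoters. GGGCGG, the core of an SP1 site, was in 5 of 9 (Itpr2, Chst5, Sntg2, Adcy2, Slc38a4), against 32.9% of 27025 promoters of the same length. CCAAT was also in 5 of 9 (Itpr2, Rbfox3, Adcy2, Slc38a4, Sorcs3), against 34.5%. CAGCTG was in 2 of 9 (Rimbp2, Slc38a4), against 12.8%. CACGTG, an E-box of the kind that basic helix-loop-helix factors bind, was in none, against 6.05% of all promoters. A direct repeat of AGGTCA with 5 bases between its copies, of the kind that retinoic acid receptors bind, was in none, against 0.0074%. TTCAGCACC, part of the element bound by the neuronal repressor REST, was in none, against 0.28%. TATAAA (12.97% of all) and the ONECUT core ATCAAT (6.97% of all) were in none. GC content had a median of 60.8% in the 9 promoters and 52% in all. The Tmprss5 window held none of these motifs. The windows of Tmprss5 and Rbfox3 end 21468 and 150556 bases inside the GENCODE genes, counted from the gene start, and that of Chst5 248 bases inside, while those of the other 6 end at the gene start within 1 base. These matches describe the letters of these windows only.

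On the GENCODE annotation of GRCm38 all 10 are protein-coding genes on different chromosomes. Onecut2 lies at chr18:64340020-64400987, plus strand, Sntg2 at chr12:30174482-30373375, minus strand, Sorcs3 at chr19:48206025-48805505, plus strand, Adcy2 at chr13:68620043-68999541, minus strand and Rbfox3 at chr11:118489762-118911597, minus strand. Rimbp2 lies at chr5:128757791-128953486, minus strand, Tmprss5 at chr9:49081260-49117587, plus strand, Slc38a4 at chr15:96994820-97055956, minus strand, Itpr2 at chr6:146108299-146502223, minus strand and Chst5 at chr8:111889136-111910447, minus strand. Exons of another gene overlapped 4.49% of the exon bases of Adcy2 and 0.43% of those of Rimbp2, both from the opposite strand, and none of the other 8. No source used here says whether the counting used strand, and reads of those stretches cannot be assigned.

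WT libraries held 5757921 to 10147341 reads in all and KO libraries 914126 to 9517360. The KO libraries of the second table at 72, 96 and 120 h are shallow, with 1079696, 914126 and 1031189 reads, and the late KO summaries below are given with and without them. Stra8, the targeted gene, had 712 and 1042 CPM in WT at 12 h and 30.7 and 25.9 CPM in KO. At 48 h the KO library of the first table held 417 reads of Stra8, 62.1 CPM, and the other KO library 2.09 CPM. WT at 48 h had 97.05 and 199 CPM, so both KO libraries were below both WT libraries. The deleted part of Stra8 is not known here. Piwil2, the reporter's gene and a germ cell gene, was at 1052 to 3188 CPM over all libraries. From 72 h on it was at 1052 to 1438 CPM in WT and at 1756 to 2638 CPM in KO. Averaged over 48, 72, 96 and 120 h it was higher in KO by 0.45 ± 0.10 on the log2 scale (edgeR adjusted p = 0.0021). At 48 h alone the value was -0.34 ± 0.21, from means of 2209 CPM in KO and 2800 CPM in WT. The part of Piwil2 in the late levels of the 10 genes was not tested. The 8 germ cell markers, Ddx4 and Dazl among them, summed to 2627 to 5245 CPM. In bulk RNA, fewer cells of a type and less RNA per cell cannot be told apart.

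The levels of the 10 genes followed more than one course in KO, and not all of them stayed near their 0 h level throughout. Onecut2, Sntg2, Tmprss5 and Chst5 fell by 12 h in KO, where their means were 5.52 to 16.9% of the KO 0 h mean, and their 120 h means were 54.6 to 97.8% of it. Rimbp2 and Itpr2 were at 35.7% and 38.6% of the 0 h mean at 12 h and at 88.4% and 96.7% at 120 h. Sorcs3, Slc38a4, Rbfox3 and Adcy2 were at 65.6 to 140% at 12 h and at 59.6 to 89.7% at 120 h. In WT the 120 h means of all 10 were 6.39 to 26.7% of the WT 0 h mean, with a median of 16.4%, against a median of 79.4% in KO. From the KO library of the first table alone, the 120 h values were 53.5 to 119% of the KO 0 h mean, with a median of 76.5%. These late levels in WT and KO are the ones that chose the genes. A further KO column at 120 h, deposited only as CPM, held lower levels for some genes. In it Sntg2 was at 17.0, Itpr2 at 11.4 and Adcy2 at 2.43 CPM, beside KO 0 h means of 29.7, 18.3 and 7.31 CPM. Tmprss5 was at 21.3 and Rbfox3 at 13.1 CPM there, beside KO 0 h means of 27.9 and 13.8 CPM. The plot of levels by time shows each library.

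**Figure D1:**
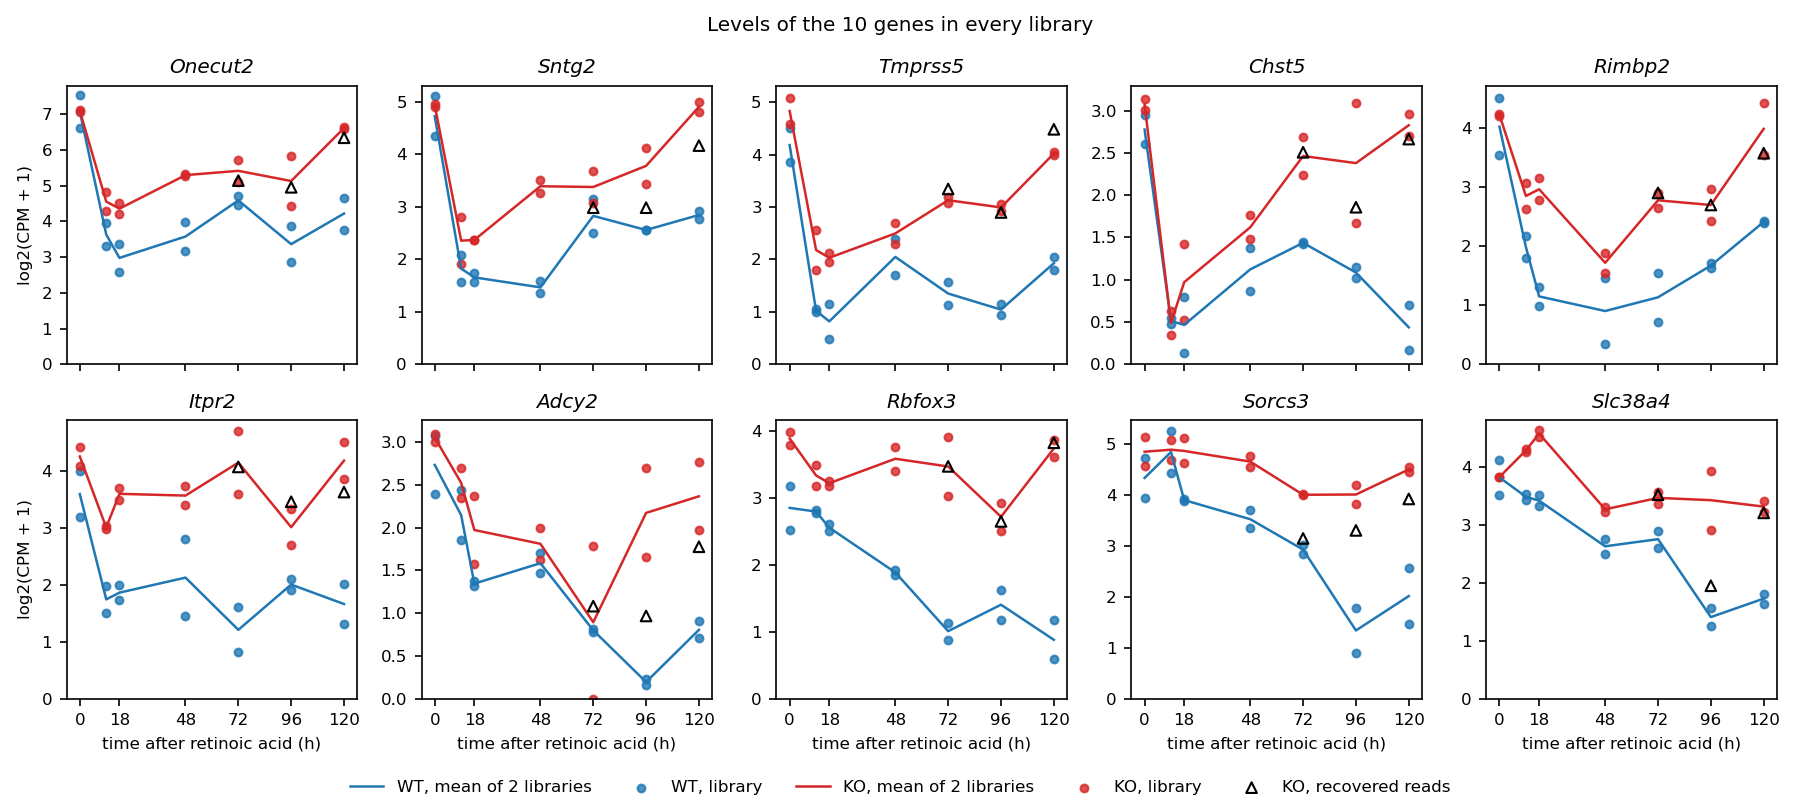
Level of each of the 10 genes, as log2(CPM + 1) on the y axis, against hours after retinoic acid on the x axis, with WT in blue and KO in red. Points are single libraries (2 per group), lines join group means, triangles are a further set of KO values at 72, 96 and 120 h that was deposited only as CPM, and each panel has its own y scale. Onecut2, Sntg2, Tmprss5 and Chst5 are low at 12 and 18 h in both genotypes, and the KO lines end at 120 h above the WT lines in all 10 panels.

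Onecut2 was the first of the 2 regulators. In WT, Onecut2 was at 186 and 97.2 CPM (0 h), 14.6 and 8.89 (12 h), 9.33 and 5.02 (18 h). It was at 14.9 and 7.97 CPM (48 h), 25.2 and 21.1 (72 h), 13.6 and 6.25 (96 h), 24.4 and 12.7 (120 h) in the same genotype. Onecut2 in KO was at 139 and 134 CPM (0 h), 27.5 and 18.4 (12 h), 21.8 and 17.5 (18 h). Later KO levels were 37.8 and 38.9 CPM (48 h), 52.2 and 33.3 (72 h), 55.6 and 20.8 (96 h), 98.2 and 96.01 (120 h). Both KO libraries were above both WT libraries at every time from 12 h on, and the groups overlapped at 0 h. At 120 h the KO mean was 71.2% and the WT mean 13.1% of their 0 h means, so the KO level of this transcription factor came back most of the way after its early fall.

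Rbfox3 took another course. Its WT levels were 8.0 and 4.74 CPM (0 h), 6.01 and 5.83 (12 h), 5.06 and 4.66 (18 h), and 2.59 and 2.79 CPM (48 h), 0.84 and 1.19 (72 h), 1.26 and 2.08 (96 h), 0.50 and 1.24 (120 h). The KO levels of this splicing factor gene were 14.8 and 12.7 CPM (0 h), 8.04 and 10.2 (12 h), 8.03 and 8.54 (18 h), and 9.53 and 12.6 CPM (48 h), 7.17 and 13.9 (72 h), 4.69 and 6.56 (96 h), 11.1 and 13.6 (120 h). No early drop of that size was seen in either genotype: at 18 h WT was at 76.3% and KO at 60.2% of the 0 h mean. The WT values were below those at 0 h from 48 h on and stood at 13.7% at 120 h, from 4 and 10 reads, while KO stood at 89.7%. KO and WT did not overlap at any of the 7 times, 0 h included. The KO to WT ratio of means was 2.16 at 0 h, the highest of the 10 genes there, so these libraries were apart before retinoic acid as well.

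Of the adaptor, scaffold and receptor genes, Sntg2 followed Onecut2. Sntg2 in WT was at 33.7 and 19.3 CPM (0 h), 1.97 and 3.22 (12 h), 1.99 and 2.33 (18 h), and at 1.55 and 1.99 CPM (48 h), 7.92 and 4.66 (72 h), 4.93 and 4.86 (96 h), 6.55 and 5.85 (120 h). The KO libraries had 30.4 and 29.1 CPM (0 h), 6.0 and 2.75 (12 h), 4.18 and 4.16 (18 h), and 8.64 and 10.5 CPM (48 h), 11.9 and 7.41 (72 h), 16.5 and 9.85 (96 h), 31.02 and 27.2 (120 h). This syntrophin transcript was thus low in both genotypes at 12 and 18 h, and at 120 h the KO mean was 97.8% of its 0 h mean while the WT mean was 23.4%. KO and WT overlapped at 0, 12 and 72 h.

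Rimbp2 was at 21.7 and 10.6 CPM (0 h), 2.46 and 3.53 (12 h), 0.99 and 1.47 (18 h) in WT, and at 1.76 and 0.27 CPM (48 h), 1.92 and 0.65 (72 h), 2.29 and 2.08 (96 h), 4.28 and 4.35 (120 h). The WT 48 h values rest on 17 and 2 reads. In KO, Rimbp2 was at 17.97 and 17.4 CPM (0 h), 5.18 and 7.43 (12 h), 5.86 and 7.88 (18 h), and at 1.94 and 2.69 CPM (48 h), 5.28 and 6.48 (72 h), 6.83 and 4.38 (96 h), 20.6 and 10.7 (120 h). The lowest KO level of this active zone scaffold came at 48 h, later than for Onecut2 and Sntg2. At 18 h the KO mean was 5.58 times the WT mean, the highest ratio of the 10 genes at that time.

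Sorcs3 had no early fall in KO. WT levels of this sorting receptor gene were 25.4 and 14.2 CPM (0 h), 36.8 and 20.5 (12 h), 13.7 and 13.97 (18 h), and 9.1 and 11.96 CPM (48 h), 6.12 and 7.05 (72 h), 2.41 and 0.87 (96 h), 4.91 and 1.74 (120 h). KO levels were 22.6 and 33.7 CPM (0 h), 24.7 and 32.7 (12 h), 23.4 and 33.3 (18 h), and 22.2 and 26.02 CPM (48 h), 15.1 and 14.8 (72 h), 17.1 and 13.1 (96 h), 20.7 and 22.3 (120 h). At 12 h the WT mean was 145% of its 0 h mean and both genotypes overlapped. The lowest WT values came at 96 h, where the second library held 5 reads. In KO the mean was 53.1% of the 0 h mean at 72 h, 53.7% at 96 h and 76.4% at 120 h.

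The signalling genes Adcy2 and Itpr2 differed from each other. Adcy2 was at 7.42 and 4.25 CPM (0 h), 4.43 and 2.61 (12 h), 1.49 and 1.59 (18 h) in WT, and at 1.76 and 2.26 CPM (48 h), 0.72 and 0.76 (72 h), 0.11 and 0.17 (96 h), 0.63 and 0.87 (120 h). KO levels of this adenylyl cyclase gene were 7.04 and 7.58 CPM (0 h), 4.09 and 5.5 (12 h), 4.18 and 1.97 (18 h), and 2.09 and 2.99 CPM (48 h), 2.45 and 0 (72 h), 2.14 and 5.47 (96 h), 5.81 and 2.91 (120 h). At 72 h the KO libraries held 13 and 0 reads, and a count of 0 allows up to 3 reads in the shallow library. The WT values at 96 h rest on 1 read each. The pooled ratio at 96 h, from 21 KO reads and 2 WT reads, was 18.1, with an interval of 4.43 to 160 that covers counting error only.

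Itpr2 in WT was at 14.96 and 8.18 CPM (0 h), 2.96 and 1.84 (12 h), 2.98 and 2.33 (18 h), and at 6.0 and 1.73 CPM (48 h), 2.04 and 0.76 (72 h), 2.75 and 3.3 (96 h), 3.02 and 1.49 (120 h). The KO libraries had 20.4 and 16.1 CPM (0 h), 6.95 and 7.15 (12 h), 12.05 and 10.3 (18 h), and 12.4 and 9.57 CPM (48 h), 11.1 and 25.01 (72 h), 9.1 and 5.47 (96 h), 21.7 and 13.6 (120 h). KO was above WT without overlap at all 7 times for this calcium channel gene. The KO mean was 38.6% of its 0 h mean at 12 h, 61.2% at 18 h and 39.9% at 96 h, while WT was at 20.7% at 12 h, 22.9% at 18 h and 19.5% at 120 h.

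Slc38a4 was the gene of the 10 with the highest KO level relative to 0 h at both 12 h (140%) and 18 h (173%). The WT levels of this amino acid transporter gene were 10.5 and 16.4 CPM (0 h), 9.85 and 10.6 (12 h), 9.04 and 10.4 (18 h), and 5.79 and 4.65 CPM (48 h), 6.48 and 5.1 (72 h), 1.95 and 1.39 (96 h), 2.52 and 2.11 (120 h). In KO they were 13.2 and 13.2 CPM (0 h), 18.9 and 18.2 (12 h), 23.9 and 21.9 (18 h), and 8.94 and 8.37 CPM (48 h), 10.9 and 9.26 (72 h), 14.3 and 6.56 (96 h), 8.29 and 9.7 (120 h). The WT mean at 18 h was 72.4% of the WT 0 h mean, and both KO libraries were above both WT libraries from 12 h on. From 48 h on both genotypes were lower than at 18 h, with KO at 68.0% and WT at 17.2% of the 0 h mean at 120 h.

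Tmprss5, the protease gene, was at 21.6 and 13.6 CPM (0 h), 0.99 and 1.07 (12 h), 0.40 and 1.23 (18 h) in WT, and at 4.24 and 2.26 CPM (48 h), 1.2 and 1.95 (72 h), 0.92 and 1.22 (96 h), 3.15 and 2.49 (120 h). KO had 32.8 and 22.99 CPM (0 h), 4.91 and 2.48 (12 h), 3.35 and 2.85 (18 h), and 5.51 and 3.89 CPM (48 h), 8.11 and 7.41 (72 h), 7.36 and 6.56 (96 h), 14.9 and 15.5 (120 h). It was low in both genotypes at 12 and 18 h. By the means of the count tables it came back least of the 10 genes in KO, to 54.6% of the 0 h mean at 120 h. In the KO column deposited only as CPM it was at 21.3 CPM at 120 h, above both of these libraries. KO and WT overlapped at 48 h only.

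Chst5, the sulfotransferase gene, was at 6.74 and 5.07 CPM (0 h), 0.39 and 0.46 (12 h), 0.10 and 0.74 (18 h) in WT, and at 0.83 and 1.59 CPM (48 h), 1.68 and 1.74 (72 h), 1.03 and 1.22 (96 h), 0.63 and 0.12 (120 h). KO libraries had 7.04 and 7.83 CPM (0 h), 0.55 and 0.28 (12 h), 1.67 and 0.44 (18 h), and 1.79 and 2.39 CPM (48 h), 5.47 and 3.7 (72 h), 7.5 and 2.19 (96 h), 5.47 and 6.79 (120 h). Its low values rest on few reads, 4 and 1 in KO at 12 h and 5 and 1 in WT at 120 h. At 12 h the genotypes overlapped, and at 120 h KO stood at 82.5% and WT at 6.39% of the 0 h mean.

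**Figure D2:**
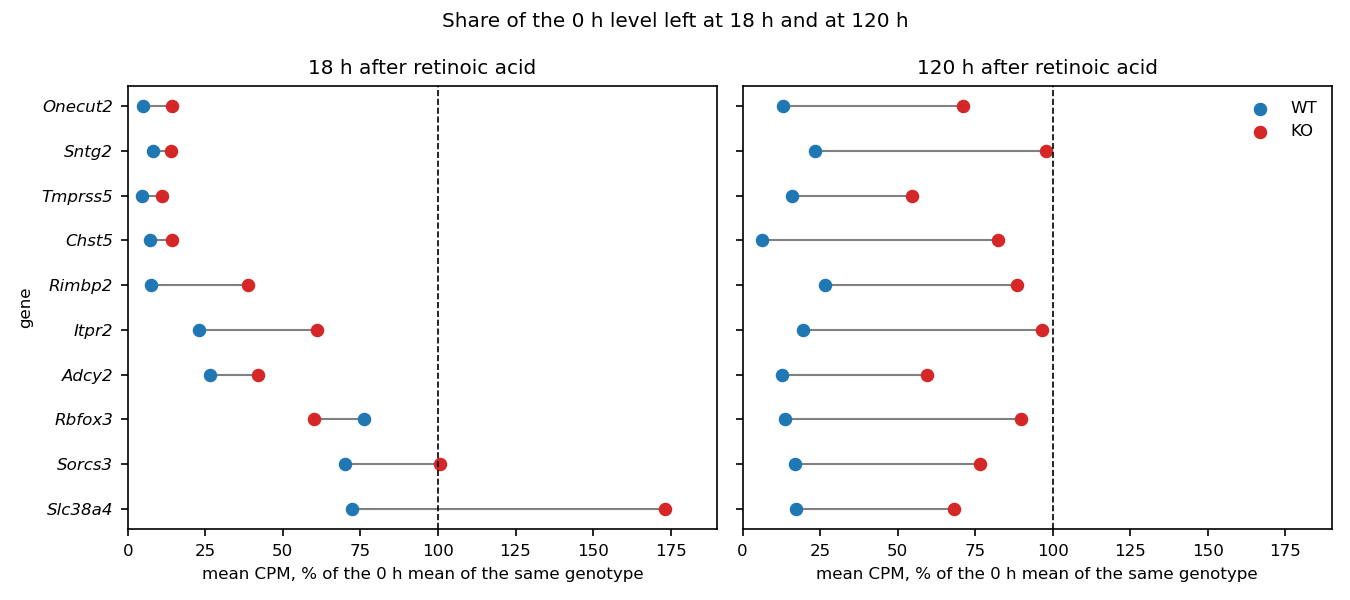
Mean CPM of each gene at 18 h (left) and 120 h (right) on the x axis, as a percentage of the 0 h mean of the same genotype, for WT (blue) and KO (red), 2 libraries per mean; the dashed line is 100%. At 18 h the 4 genes Onecut2, Sntg2, Tmprss5 and Chst5 lie at 14.4% or below in both genotypes, and at 120 h the KO points lie between 54.6 and 97.8% and the WT points between 6.39 and 26.7%.

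Per kilobase of exon, Onecut2, Sntg2 and Tmprss5 stood highest in the arrested cells. Level per length was 8.72 CPM per kb for Onecut2, 7.77 for Sntg2 and 5.75 for Tmprss5 in WT at 0 h, as means of 2 libraries. The other 7 were between 0.782 (Itpr2) and 3.15 CPM per kb (Slc38a4). In KO at 120 h Sntg2 was at 8.53, Onecut2 at 5.98 and Tmprss5 at 4.98 CPM per kb, again the highest of the 10. By this measure Rbfox3, the second regulator, was at 1.09 CPM per kb in WT and 2.37 in KO at 0 h.

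The fall in KO after retinoic acid was tested against the KO 0 h libraries, which the rule for choosing the genes did not name. Since earlier results of these data were known at that choice, the counts below are not independent support. At 12 h 4 of the 10 genes fell and none rose, against 4.38% of all genes called lower and 4.06% called higher. These were Sntg2 (log2 fold change -2.66 ± 0.38 (SE), edgeR adjusted p = 0.0001), Tmprss5 (-2.83 ± 0.41, adjusted p = 0.0002), Chst5 (-3.97 ± 0.73, adjusted p = 0.0012) and Onecut2 (-2.52 ± 0.48, adjusted p = 0.0026). Both KO 12 h libraries were below both KO 0 h libraries for each of the 4. Rimbp2 (-1.48 ± 0.49, edgeR adjusted p = 0.0612) and Itpr2 (-1.35 ± 0.49, edgeR adjusted p = 0.0896) did not pass. Rimbp2 passed with DESeq2 (adjusted p = 0.0427). It also passed with the KO columns deposited only as CPM in place of the shallow libraries (edgeR adjusted p = 0.0385). With no filter on low counts Rimbp2 and Itpr2 both passed (edgeR adjusted p = 0.0234 and 0.0304). With the replicate number as a block both did too (edgeR adjusted p = 0.0446 and 0.0460). That number is the one of the count table, and it pairs WT libraries throughout but KO libraries, compared here, in part at most. Adcy2 (-0.59 ± 0.52), Rbfox3 (-0.58 ± 0.36), Sorcs3 (0.06 ± 0.37) and Slc38a4 (0.52 ± 0.30) did not pass either. The median over the 10 was -1.42, beside 0.01 over all genes. Without the second KO 12 h library the Onecut2 value was -2.28 (edgeR adjusted p = 0.0558).

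The same 4 genes were lower at 18 h than at 0 h in KO, in a comparison that shares the KO 0 h libraries with the one at 12 h. The background was 5.16% of all genes lower and 3.75% higher. Values were -3.10 ± 0.42 for Tmprss5, -2.77 ± 0.39 for Sntg2, -2.73 ± 0.48 for Onecut2 and -2.66 ± 0.64 for Chst5, with edgeR adjusted p of 0.0001, 0.0001, 0.0020 and 0.0109. Chst5 lost its call without the first KO 0 h library (edgeR adjusted p = 0.0826) and without the second KO 18 h library (adjusted p = 0.158). Slc38a4 had 0.85 ± 0.30 (edgeR adjusted p = 0.0794) and was higher in both 18 h libraries than in both 0 h libraries. Sorcs3 had 0.08 ± 0.37.

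At 12 h none of the 10 genes passed the test between genotypes (edgeR), against 1.10% of all genes higher in KO and 0.0856% lower. Of the 10, 3 had an unadjusted p below 0.05 (12.5% of all genes), and DESeq2 called 1, Tmprss5. Tmprss5 was also called with the replicate number as a block (edgeR adjusted p = 0.0394), though that number does not consistently pair KO libraries. With no filter on low counts Tmprss5 and Onecut2 were called (edgeR adjusted p = 0.0370 and 0.0444). Tmprss5 had the highest value, 1.90 ± 0.49 (edgeR adjusted p = 0.0565), from 4.91 and 2.48 CPM in KO and 0.99 and 1.07 CPM in WT. Itpr2 had 1.52 ± 0.54 and Slc38a4 0.87 ± 0.30, with edgeR adjusted p of 0.204 and 0.199. KO was above WT without overlap for 6 of the 10, beside 22.5% of all genes. Sorcs3 (-0.01 ± 0.37) and Chst5 (0.08 ± 0.90) were near 0. Sorcs3 changed sign with DESeq2 size factors, and Chst5 without the first KO 12 h or the first WT 12 h library. In each of these last 2 runs 2 values changed sign. A sign change of 1 value was also seen with DESeq2 itself, with the replicate block and without the first WT 18 h library. The same held with the KO columns deposited only as CPM in place of the shallow libraries.

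At 18 h 4 of the 10 genes were higher in KO than in WT and none lower, beside 3.16% and 0.948% of all genes. Rimbp2, the active zone scaffold, had a log2 fold change of 2.55 ± 0.56 (edgeR adjusted p = 0.0084). Itpr2 had 2.15 ± 0.52 (edgeR adjusted p = 0.0169), Tmprss5 2.05 ± 0.51 (adjusted p = 0.0206) and Slc38a4 1.32 ± 0.30 (adjusted p = 0.0113). The other 6 lay between 0.85 (Rbfox3) and 1.53 (Chst5) and did not pass. Onecut2 was called with DESeq2 (adjusted p = 0.0171) and with no filter on low counts (edgeR adjusted p = 4.5e-05). Sorcs3 was called with no filter only (edgeR adjusted p = 0.0435). With the replicate number as a block, which does not consistently pair KO libraries, Onecut2 was called too (1.57, edgeR adjusted p = 0.0017). Mitochondrial genes took 8.55% and 6.495% of reads in the KO 18 h libraries and 2.48% and 5.77% in the WT 18 h libraries, and the first KO value was the highest of the 28 libraries. Over all 7 times the shares were 1.98 to 3.06% in first-table WT libraries, 3.21 to 6.79% in second-table WT libraries and 4.55 to 8.55% in KO libraries. The difference was thus not limited to 18 h. The part of mitochondrial reads in the 18 h values was not tested. An unadjusted p below 0.05 was found for 8 of the 10, beside 15.2% of all genes. KO was above WT without overlap for 9 of 10, all but Chst5, beside 19.4% of all genes. The median over the 10 was 1.42, beside -0.01 over all genes. These calls rest on all 4 libraries of the comparison: 1 of the 10 genes was called without the first KO 18 h library (Rimbp2), 0 without the second, 0 without the first WT 18 h library and 2 without the second (Rimbp2 and Tmprss5). In every alternative run the 10 values stayed positive.

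**Figure D3:**
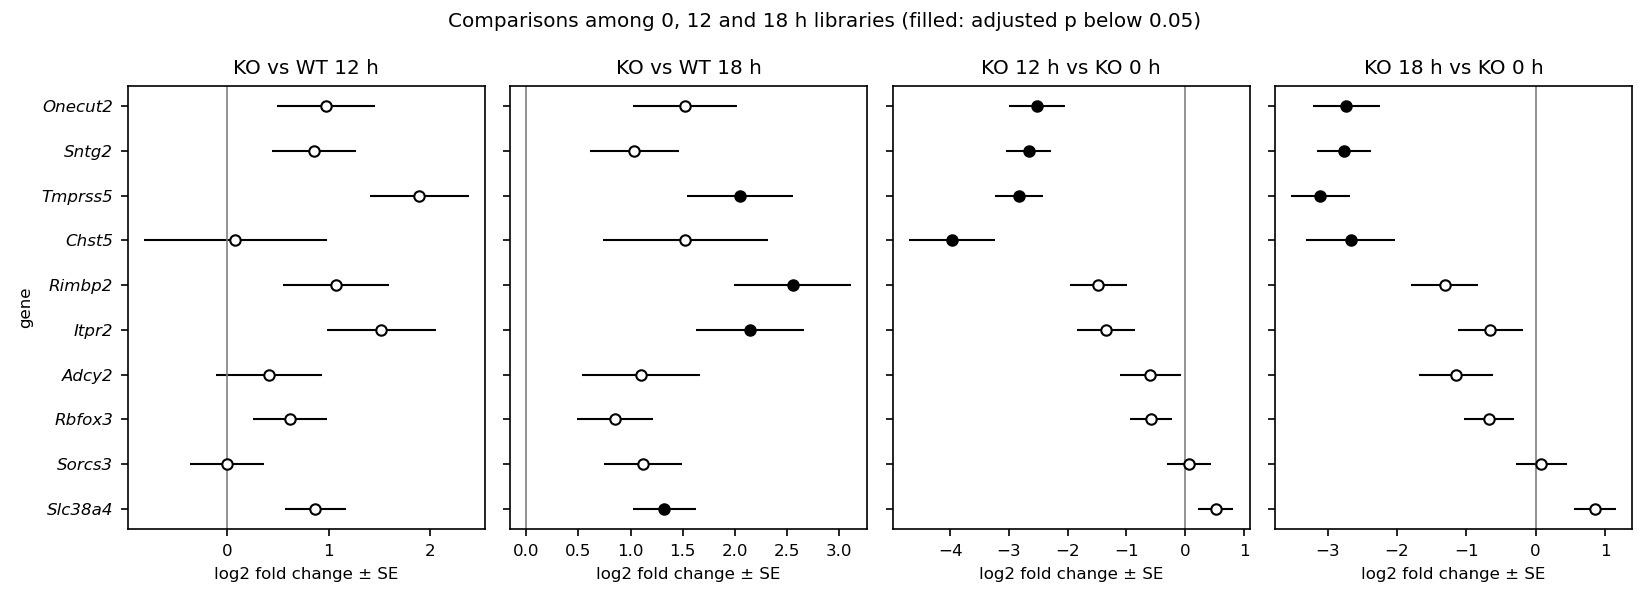
Log2 fold change (x axis) with its standard error for each of the 10 genes in 4 comparisons, from edgeR over 2 libraries per group. The rule for choosing the genes did not name these comparisons, but earlier results of these data were known. Filled points have an adjusted p below 0.05: 0 of 10 for KO vs WT at 12 h, 4 at 18 h, and 4 each for KO at 12 h and at 18 h against KO at 0 h.

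Before retinoic acid the genotypes were closer. KO to WT ratios of means at 0 h ran from 0.963 (Onecut2) to 2.16 (Rbfox3), with a median of 1.26, and 4 of 10 genes were above WT without overlap, beside 21.7% of all genes. Medians at the later times were 1.75 at 12 h, 2.44 at 18 h, 2.29 at 48 h, 2.48 at 72 h, 4.07 at 96 h and 5.60 at 120 h. From the KO library of the first table alone, the medians were 3.26, 6.13 and 5.76 at 72, 96 and 120 h, so the 96 h value is 1.5 times higher without the shallow library. The values from 48 h on chose the genes and are given without a test. KO was above WT without overlap for 8 of 10 genes at 48 h (all but Adcy2 and Tmprss5, with 20.5% of all genes), 8 at 72 h (all but Sntg2 and Adcy2, 25.3%), 10 at 96 h (22.3%) and 10 at 120 h (30.3%). The highest ratio at 120 h was that of Chst5, 16.3, and the lowest that of Rimbp2, 3.62. Without the shallow library Chst5 had 14.5 and the lowest was Slc38a4 with 3.58.

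Averaged over 48, 72, 96 and 120 h, KO minus WT log2 fold changes ran from 1.501 ± 0.18 (SE) for Slc38a4 to 2.60 ± 0.22 for Rbfox3. Their median was 1.97, beside -0.04 over all genes. Against 0 h the late mean had a median of -2.57 in WT and -0.93 in KO. Thus in KO, too, all 10 late values were negative, from -0.43 ± 0.24 for Slc38a4 to -1.81 ± 0.28 for Tmprss5. The 95% intervals were -0.91 to 0.05 for Slc38a4, -1.23 to 0.20 for Itpr2 and -1.62 to 0.06 for Chst5. Such intervals describe spread only and are no test, since the late KO libraries chose the genes. Without the 3 shallow KO libraries the KO to WT values ran from 1.62 (Slc38a4) to 2.48 (Rbfox3). With the KO library of the first table alone, all 10 genes were above both WT libraries at 72, 96 and 120 h, beside 38.1%, 37.9% and 42.2% of all genes. In the KO columns deposited only as CPM, 9, 10 and 10 of the genes were above both WT libraries at these times, beside 37.3%, 34.1% and 41.6% of all genes. The WT libraries in these counts chose the genes, so the counts are a description. Adcy2 had 2.07, and 0.42 when the first KO 72 h library was left out, since the KO value at 72 h then rests on the library with 0 reads. Without the KO 48 h library that held Stra8 reads, values ran from 1.48 (Slc38a4) to 2.64 (Rbfox3).

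From 18 h to 120 h most of the 10 genes rose in KO, among them Rbfox3, which had no early drop like that of Onecut2. In the KO column deposited only as CPM, Itpr2 at 120 h was at 11.4 CPM, beside 12.05 and 10.3 CPM at 18 h. The others of the 7 genes named next were above both KO 18 h libraries in that column. Between these times 7 of the 10 genes were higher at 120 h in KO without overlap (Onecut2, Sntg2, Rbfox3, Rimbp2, Tmprss5, Itpr2 and Chst5), beside 31.8% of all genes, and Sorcs3 and Slc38a4 were lower, beside 27.4%. With the first-table library alone at 120 h, the same 7 and Adcy2 were above both KO 18 h libraries (42.6% of all genes), and Sorcs3 and Slc38a4 below both (39.4%). In WT 4 were higher (Onecut2, Sntg2, Rimbp2 and Tmprss5, beside 24%) and 4 lower (Sorcs3, Adcy2, Rbfox3 and Slc38a4, beside 31.8%). WT Onecut2 thus also moved up from its lowest level, from 9.33 and 5.02 CPM at 18 h to 24.4 and 12.7 CPM at 120 h, and stayed at 13.1% of the 0 h mean. Apart from the column deposited only as CPM, all of these values rest on libraries used to choose the genes.

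Over the 14 group means the 10 genes had different profiles. Pearson's r of log2(CPM + 1) over the 45 pairs ran from 0.20 to 0.96 with a median of 0.69; the points share libraries and the late drop in WT that chose them, so these are a description. Among 11912 other genes with at least 5 CPM in some group, those whose profile was most like the mean of the 10 were Evc2 (r = 0.97), Slc38a7, Klf3, Slc44a2, Bicc1, Tfap2c, Acaa2 and Upp1, the last with r = 0.96, over 14 groups. Evc2 was at 54.3, 19.1 and 11.5 CPM in WT at 0, 18 and 120 h and at 83.4, 36.1 and 69.0 CPM in KO, as means of 2 libraries. Upp1 was at 111, 15.1 and 22.7 CPM in WT and at 150, 50.9 and 131 CPM in KO at those times.

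The other genes of the members' families were described from lists, by the late KO to WT comparison, in which 14% of all genes were higher and 17.3% lower (edgeR). Without the 3 shallow libraries these shares were 13.2% and 12.9%. Adenylyl cyclases had 3 of 7 tested genes higher in KO, Adcy10 (1.29), Adcy5 (1.23) and Adcy6 (1.17), and 1 lower. SLC38 transporters had 5 of 9 higher, among them Slc38a5 (1.60), Slc38a7 (0.83) and Slc38a3 (0.75), and 1 lower, and without the shallow libraries 4 higher and 0 lower. Of the VPS10 receptors 1 of 4 was higher, Sort1 (0.55), and of the IP3 and ryanodine receptors 1 of 5, Ryr1 (0.67). Itpr1 (-0.13 ± 0.11) and Itpr3 (-0.21 ± 0.14) did not pass. Neither of the other ONECUT factors passed, and both had group means of at most 5.55 CPM.

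Lists of neuronal genes did not all move one way. In the presynaptic list 1 of 30 tested genes was higher in KO and 7 were lower, with Rimbp3 (-2.16), Bsn (-1.64) and Pclo (-0.93) the largest, and the list median was -0.12 beside -0.04 over all genes. Without the shallow libraries 3 were higher and 7 lower. Neuronal-type splicing factors had 2 of 14 higher and 5 lower, among them Elavl3 (-1.15), Elavl2 (-0.89) and Khdrbs2 (-0.82). Neuronal fate and cytoskeleton genes had 5 of 21 higher, among them Gad1 (1.68), the GABA-synthesising enzyme, Neurod1 (1.503) and Neurog3 (1.26), and 3 lower, with a list median of 0.34. Without the shallow libraries 3 of 22 were higher and 2 lower, with a median of 0.297. Neurog3 also marks undifferentiated spermatogonia. In the REST repressor list 4 of 10 were higher, among them Rcor3 (1.05), Rcor1 (0.79) and Ehmt2 (0.67), and Rest itself did not pass (-0.08). The median of that list was -0.04, as over all genes. Syntrophin and dystrophin complex genes had 2 of 10 higher and 3 lower (Sgcb -0.998, Sntb2 -0.81, Dmd -0.76), sulfotransferases 0 of 4 higher and 1 lower (Chst3, -1.42), and transmembrane proteases 1 of 4 higher. Without the shallow libraries the splicing factors had 1 higher and 4 lower, and the REST list 3 higher and 1 lower.

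The list of undifferentiated spermatogonia genes had more calls. Of its 27 genes 16 were higher in late KO and 2 lower, beside 14% and 17.3% of all genes. Those higher were led by Utf1 (2.17), Upp1 (1.87) and Egr4 (1.79). In KO itself 12 of 27 fell by 12 h against 0 h and none rose, beside 4.38% of all genes lower and 4.06% higher. At 18 h 9 of 27 were higher in KO than WT and none lower, beside 3.16% and 0.948% of all genes. In WT late against 0 h, 17 of 27 were lower and none higher, beside 15.4% of all genes lower. Of 16 differentiating spermatogonia genes 8 were lower in late KO and 3 higher. Without the shallow libraries 16 of the 27 were higher and 1 lower, and of the 16 differentiating genes 7 were lower and 0 higher.

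**Figure D4:**
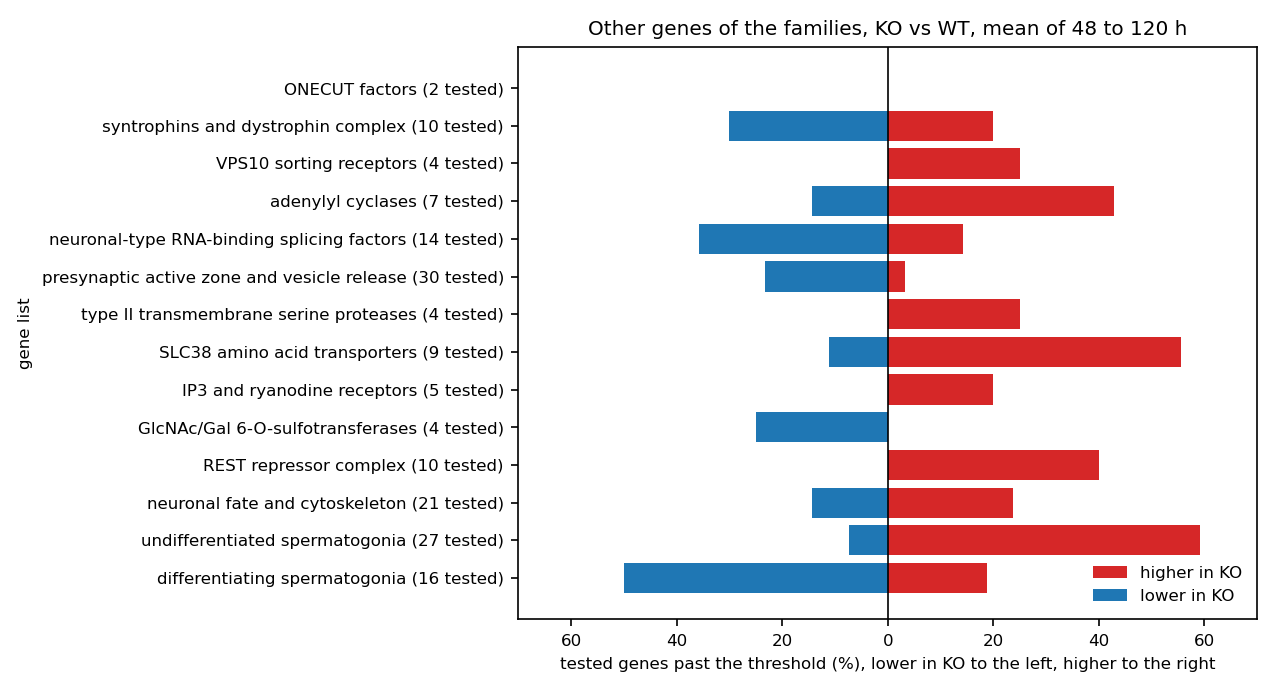
Share of the tested genes of each list (x axis, %) that passed the edgeR threshold in KO vs WT over 48 to 120 h, lower in KO to the left in blue and higher to the right in red; the number tested stands beside each list, and the 10 genes themselves are left out. SLC38 transporters (5 of 9) and undifferentiated spermatogonia genes (16 of 27) have the longest bars to the right, and the presynaptic list (1 of 30) one of the shortest.

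Markers of cells other than germ cells moved with some of these differences. The share of all genes higher in late KO than in late WT, for the counts below, was 14%. Summed over the 11 peritubular myoid and stromal markers, levels were 267 to 382 CPM at 0 h, 73.7 to 115 CPM at 12 and 18 h and 98.6 to 182 CPM from 48 h on in the WT libraries. The KO libraries had 373 to 500.1 CPM, 139 to 169 CPM and 194 to 414 CPM at those times. Late KO was higher for 3 of 10 tested (Myh11, Des and Col1a1), and Col1a1 alone had a mean of 216 CPM in late KO and 83.9 CPM in late WT. Acta2, Tagln and Cnn1, which define myoid cells, had group means of at most 10.2, 2.36 and 1.87 CPM, and Lum of at most 0.19 CPM. Summed Schwann and glial markers were 60.05 to 84.9 CPM in WT and 93.7 to 111 CPM in KO at 0 h, and 29.2 to 49.5 CPM and 36.3 to 91.6 CPM late. Of 5 tested, Mbp and Pmp22 were higher in late KO, and S100b, Gfap and Foxd3 stayed under 1 CPM in every group. Sertoli cell markers had 3 of 14 higher in late KO (Wt1, Gata4 and Trf). Their summed level was 146 to 362 CPM in late WT and 230 to 421 CPM in late KO apart from the shallow KO 72 h library, which had 1136 CPM. Endothelial markers had 2 of 5 higher. Leydig, macrophage, erythroid and spermatid markers had none called in late KO to WT, and Insl3 and Tnp2 had 0 reads in every library. The part of these cells in the levels of the 10 genes was not tested.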

How the data were processed

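RNA of sorted PIWIL2-eGFP cells was sequenced on an Ion Proton after polyA selection, per the labels' protocols. Bowtie, TopHat, Cufflinks and mm10 are named in the submitters' processing notes; neither their versions nor how reads were counted is given in the sources used here. Read counts by gene symbol were deposited by the authors in 2 tables, each with 1 library of every group, and 2 further tables named as FPKM, which the design had assumed. Those deposited values were CPM, without division by length: 25 of 28 columns equalled a count column over its total within 0.001. The other 3, KO at 72, 96 and 120 h, matched no count column; 100% of the low values checked in them (16634 to 17424 per column) were whole multiples of 1 read within 0.1 read (totals 4479729, 4190650 and 4122223), and they serve as recovered reads in an alternative. KO columns of the CPM tables followed the other-numbered count table, so KO libraries are named by count table. No 2 of the 3 sets of KO values at these times agreed within sampling noise (chi-square per degree of freedom 4.09 to 15.7).

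Of 43280 features, 27 with date-like names were left out of the tests. In the WT libraries of the first table, reads without a feature were 27.1 to 33.1%, ambiguous reads 0.68 to 0.78% and reads that did not align uniquely 14.3 to 16.2%; these rows were left out. Counts were fitted with edgeR 4.0.16 (R 4.3.3; TMM, default expression filter, 14 group means over 28 libraries, robust quasi-likelihood tests, Benjamini-Hochberg adjustment over 17519 genes, threshold 0.05). The fit was run on simulated counts with changes set in the KO 12 h group only, for KO vs WT at 12 h. The other comparisons were not checked in this way. With 2 libraries a group, precision rests on the spread shared over groups, and members at a few reads per library are limited by depth. Alternatives were DESeq2 1.42.0, other scalings, no filter, a replicate block, leaving out each library, and leaving out or replacing the shallow libraries. The members, gene lists and tests were chosen with earlier results of these data known. Genes named from a list are up to 3 by size of fold change among those past the threshold in late KO vs WT, with at least 1 CPM in either genotype; genes named for likeness are the 8 with the highest r. Itpr1, Itpr3, Rest and the marker genes with low levels were named outside that rule.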

Additional observations from a re-analysis of the deposited data

Results flagged for a closer look

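The 3 KO columns deposited only as CPM, at 72, 96 and 120 h, lie outside the comparisons and were set against the WT libraries of the same times. Those WT libraries are among the ones that chose the genes, so the counts below are no independent support. Pearson's r of log2(CPM + 1) between these columns and the first-table KO libraries was 0.97 to 0.98 over the genes compared. In them 9 of the 10 genes at 72 h (all but Sntg2), 10 at 96 h and 10 at 120 h were above both WT libraries, beside 37.3%, 34.1% and 41.6% of all genes. The median ratio to the WT mean was 2.28, 3.08 and 4.28. Onecut2 in these columns was at 34.4, 30.1 and 80.3 CPM, and Sntg2 at 6.92, 6.92 and 17.0 CPM. For Rbfox3 both 120 h libraries were above both 18 h libraries in KO and below both in WT: log2 of the 120 h over the 18 h mean was 0.58 in KO and -2.48 in WT. The fitted KO value was 0.47 ± 0.38 (SE), with an interval of -0.28 to 1.21, and the KO mean at 96 h (5.62 CPM) was below that at 18 h (8.29 CPM). The difference between genotypes was not tested.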

How the results depend on the processing

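No result changed direction among the called values. The counts of single-gene values that follow pool all comparisons, also the late ones, for which no test of the 10 genes is given. Among the values that kept their side or moved little, 348 were of KO vs WT late, 363 of WT late vs WT 0 h and 349 of KO late vs KO 0 h. Most of the lost calls were in KO vs WT at 18 h. Of the values of single genes under the alternatives, 2423 kept their side of the threshold or moved by less than the spread, 21 gained a call, 16 lost one and 10 moved by more. The genes called in KO vs WT 12 h numbered 207, and 314 with DESeq2 and 465 with no filter; members called there numbered 0, and 1 with DESeq2, with recovered reads and with the replicate block, and 2 with no filter. The genes called in KO late vs KO 0 h numbered 743, and 234 without the shallow libraries and 1252 with recovered reads. Leaving out 1 library at a time gave 346 to 1758 genes for KO 12 h vs 0 h, 251 to 1795 for KO 18 h vs 0 h, 15 to 1017 for late KO vs 0 h, 19 to 268 for KO vs WT at 12 h, 176 to 805 at 18 h, 4291 to 5923 late, and 2048 to 5334 for late WT vs 0 h. It gave 3 to 5, 3 to 4, 0 to 1 and 0 to 4 of the 10 genes for KO 12 h and 18 h vs 0 h and KO vs WT at 12 and 18 h. A group left with 1 library was assumed to vary like the others. The cause of these shifts was not tested, apart from the loss of samples.

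The count-table number was used as a replicate block. Same-numbered WT libraries deviated together in 21 of 21 pairs of times (r above 0.1), KO libraries in 9 of 21 and WT with KO in 3 of 49. In KO r ran from -0.17 to 0.64 with a median of 0.06. The numbers thus pair WT libraries throughout and KO libraries in part at most. With the replicate block 6 of the 10 genes were called for KO 12 h vs 0 h, 4 for 18 h vs 0 h and 5 for KO vs WT at 18 h, the fifth being Onecut2. The late summaries from the first-table KO library alone and the list counts without the shallow libraries were added after seeing the data. Depth limits values that rest on few reads in late WT, among them those of Adcy2 (1 read each at 96 h), Chst5 (5 and 1 at 120 h), Rbfox3 (4 and 10 at 120 h), Tmprss5 (8 and 7 at 96 h) and Rimbp2 (2 in 1 library at 48 h).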
